A study of Homo sapiens with 8 samples.

Results

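ρ0 cells are cells that have lost their mitochondrial DNA and so cannot assemble a working respiratory chain. The 48 h response of such cells to arginine loss was described here from 4 of the 8 RNA-seq libraries of the study. They are 2 libraries of untreated ρ0 cells (MB231_p0#27, replicates 1 and 2) and 2 libraries of the same ρ0 cells after 48 h of arginine loss (replicates 1 and 2). All 4 come from MDA-MB-231, an established human breast cancer line with little ASS1, the enzyme that makes the direct precursor of arginine, and all 4 come from 1 ρ0 clone, number 27, so differences between clones were not sampled. The study's methods describe a gift line kept in DMEM with serum, pyruvate, uridine and ethidium bromide, as their maintenance medium. The labels give the starvation as arginine deiminase (ADI), an enzyme that breaks arginine down, at 0.3 µg/mL in full growth medium, whereas the study's text speaks of arginine-starved medium. The other 4 libraries are the parental cells with the same 2 treatments, and they were used only for the difference between lines at the end.

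The table lists 23393 genes. Counts were present in the ρ0 libraries for 18632 of them, 14127 passed edgeR's expression filter and were tested, and 9266 were below it. The controls held 28886136 and 30588999 counts and the starved libraries 31022155 and 25259503, with between 5.62% and 6.01% of counts in the 20 most abundant genes. The 13 protein-coding genes of the mitochondrial genome were looked for by symbol and none was among the rows, so the loss of mitochondrial DNA was not checked here. Of 10 genes that mark basal-like lines such as MDA-MB-231, all passed the filter, with a summed level of 9884 and 10465 CPM in the controls (CPM are counts scaled to library size) and 9385 and 9271 CPM in the starved libraries. The oestrogen receptor gene ESR1 had 3, 2, 0 and 0 counts, the leukocyte gene PTPRC 7, 12, 3 and 0, and the fibroblast gene PDGFRA 0, 1, 1 and 0. Of 10 blood markers 2 passed the filter, CD14 with 92, 77, 30 and 39 counts and LYZ with 55, 15, 15 and 12, both called lower if control 2 is left out. Of 12 fibroblast and endothelial markers 6 passed, and 5 of these had negative log2 changes (median over the 6 of -1.08). The exception, the VEGF receptor gene KDR, was the only one called, a rise from 172 and 213 to 601 and 486 counts, while the 5 others would be called falls without control 2 and 1 of them without control 1. PDGFRB had 333, 101, 61 and 57 counts and COL1A2, below the filter, 97, 3, 4 and 1, so control 1 was the highest library for both. The part of such markers in the results was not tested.

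Cells sense a missing amino acid mainly through the kinase GCN2, which binds uncharged tRNA and phosphorylates eIF2α. General translation then falls while the mRNA of ATF4 is translated, and ATF4 with partners of the C/EBP family turns on genes for amino acid uptake and synthesis, tRNA charging and, through CHOP (the gene DDIT3), stress and death. ρ0 cells live by glycolysis, and they depend on added pyruvate and uridine to keep up NAD+, aspartate and pyrimidine supply.

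The 2 untreated ρ0 libraries differed far more than the 2 starved ones. The coefficient of variation between replicates, beyond sampling noise, was 25% for the controls and 1.83% for the starved pair, against 5.18% and 2.25% for the parental pairs. Among genes of at least 10 CPM, 360 (3.67%) lay more than 2-fold apart between the controls and 0 between the starved libraries. In a principal component analysis of the 4 libraries, the first component (74.0% of variance) separated starved from control libraries, and the second (22.5%) separated the controls from each other, at -32.6 and 34.9, with the starved libraries near its centre at -0.62 and -1.67. Labels and study text give no culture, date or batch for either control, so results are given beside each control. What set the controls apart was not tested.

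The controls differed across whole gene programs. Control 1 was the higher one for 45 of 46 interferon-stimulated genes, with a median log2 ratio of control 2 over control 1 of -1.24, and for 46 of 52 mitosis genes (median -0.39). Control 2 was the higher one for 46 of 48 DNA replication genes (median 0.61). The 6 genes furthest above control 1 in control 2 were GAL, IL24, EGR1, TMEM45B, POLR3G and SCG5, and the 6 furthest below were IFIT1, CX3CL1, TRANK1, RSAD2, CEACAM1 and RARRES3. IFIT1, an interferon-induced sensor of viral RNA, stood at 269 and 32.4 CPM in controls 1 and 2, and EGR1, an immediate early factor of growth signalling, at 6.26 and 25.6 CPM. Of 329 genes of at least 10 CPM with the controls over 2-fold apart, the starved libraries lay between the controls for 174, above both for 68 and below both for 71. For IFIT1 and EGR1 the starved libraries lay between, at 48.9 and 48.4 CPM and at 12.1 and 11.6 CPM.

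A gene was called when its Benjamini-Hochberg adjusted p was below 0.05 and its change exceeded 1 on the log2 scale in size. In all 1359 of the 14127 tested genes (9.62%) were called, 491 (3.48%) higher in starved ρ0 cells and 868 (6.14%) lower. Their median absolute log2 fold changes were 1.41 and 1.5, and 101 of the rises and 197 of the falls were past 2 on that scale. The median over all tested genes was -0.01. For all 491 and all 868 the starved libraries did not overlap the controls, which without any test was so for 35.6% of tested genes upward and 35% downward. Of the called rises 89, and of the called falls 103, belong to any of the 31 gene lists described here. The controls were more than 2-fold apart in 21 of the called rises and 37 of the called falls, but in 280 of the 671 genes whose fold change was past the threshold and whose adjusted p was not. Called genes that were also past the fold threshold against each control taken alone numbered 378 (2.68%) higher and 679 (4.81%) lower. Without control 1 the counts were 938 and 1305 and without control 2 they were 932 and 1472, since the spread then came only from the tight starved pair, and without starved library 1 or 2 they were 275 and 372 or 262 and 378. With 2 libraries a group, the smallest adjusted p-value was 0.0155, and p-values measure the spread between these libraries, which are not stated to be separate cultures.

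**Figure D1:**
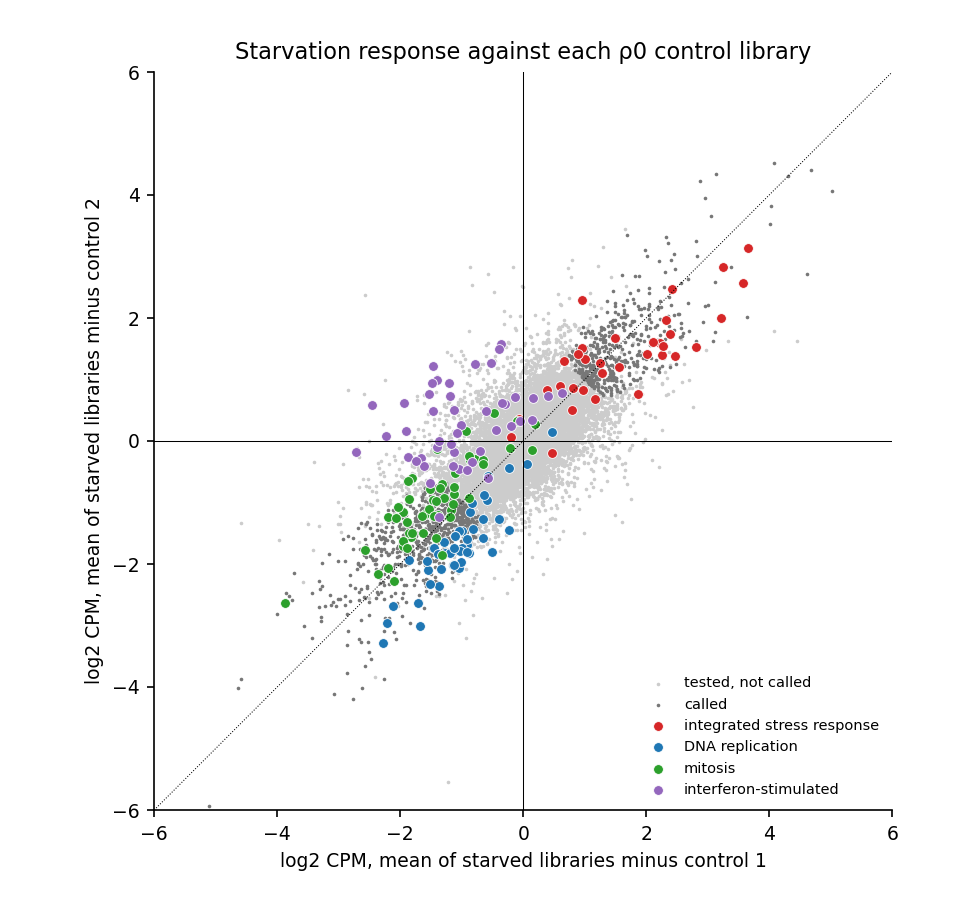
Log2 CPM of the mean of the starved libraries minus control 1 (x axis) and minus control 2 (y axis) for the 14127 tested ρ0 genes, with 4 gene lists in colour and the dotted line marking equal change. Of the interferon-stimulated genes 45 of 46 lie above the line and of the replication genes 46 of 48 below it, while nearly all stress response genes sit at the upper right, higher than both controls.

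The 12 rises with the widest gap between the nearest control and the nearest starved library were LAMP3, CCND2, IL1A, ADM2, CTH, CSF2, ASNS, KDM6B, CXCL8, SLFN5, GDF15 and IGFBP1. LAMP3, a lysosomal membrane glycoprotein gene, had 1.32 and 1.60 CPM in the controls and 36.7 and 34.3 CPM in the starved libraries. CCND2, which encodes cyclin D2, stood at 1.29 and 1.29 CPM and then 27.02 and 26.6 CPM. The controls lay close together for both genes, and the log2 fold changes were 4.60 ± 0.18 (SE, adjusted p = 0.0155) and 4.38 ± 0.16 (adjusted p = 0.0155). KDM6B, a histone H3K27 demethylase, read 16.1 and 16.01 CPM in the controls and 96.6 and 94.7 CPM after starvation. IGFBP1, a secreted binding protein of insulin-like growth factors, read 31.6 and 32.1 and then 169.97 and 158 CPM, so that neither gene's controls overlapped the starved pair or lay visibly apart. SLFN5, a Schlafen family gene that interferon can induce, had controls further apart, at 12.7 and 6.94 CPM against 67.2 and 63.7 CPM starved, with log2 fold changes of 2.36 against control 1 and 3.22 against control 2.

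**Figure D2:**
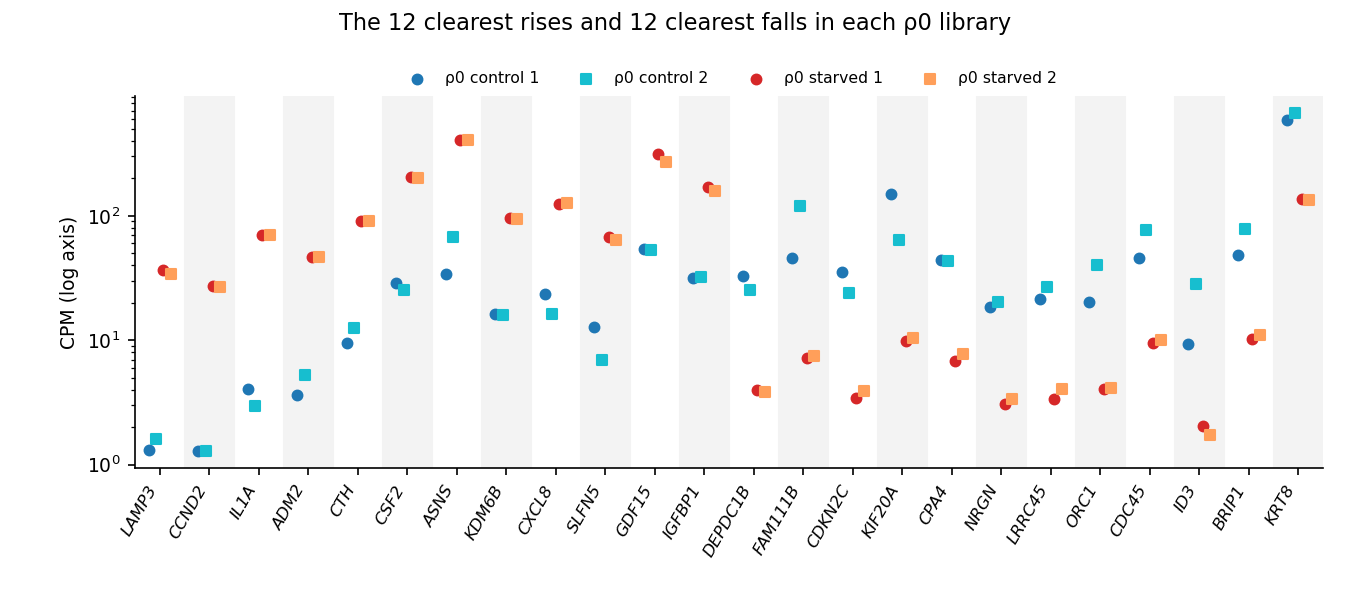
CPM on a log axis in each of the 4 ρ0 libraries (points) for the 12 called rises and 12 called falls with the widest gap between nearest libraries of the groups, in that order. The starved libraries overlay each other in nearly every gene, and the controls lie apart most in FAM111B, ID3, KIF20A, ORC1 and ASNS.

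Most genes of the integrated stress response rose. Of 33 tested genes of the ATF4-CHOP program, 21 (63.6%) were called higher and 0 lower, against 3.48% and 6.14% of all tested genes. The rest were not called. The median log2 fold change was 1.37, at 1.49 against control 1 and 1.40 against control 2. The starved sum was 7645 and 7534 CPM, against 2847 and 3146 CPM in the controls. ASNS, the asparagine synthetase that is a standard ATF4 target, was at 33.98 and 68.1 CPM in the controls and 403 and 407 CPM in the starved libraries. Control 2 was above control 1 by 1.002 on the log2 scale, and both lay far under the starved pair, at a log2 fold change of 2.99 ± 0.36 (adjusted p = 0.0172). CTH, the cystathionine lyase that makes cysteine, read 9.44 and 12.6 CPM and then 90.9 and 89.95 CPM, a log2 change of 3.03 ± 0.18 (adjusted p = 0.0155). ADM2, which encodes a peptide of the calcitonin family, went from 3.62 and 5.21 CPM to 46.6 and 46.5 CPM, and GDF15, a stress-induced cytokine, from 54.5 and 52.6 CPM to 315 and 269 CPM.

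Among the regulators of the program, ATF4 itself stood at 140.5 and 196 CPM in the controls and 317 and 315 CPM after starvation, without overlap, and its log2 fold change of 0.91 ± 0.19 (adjusted p = 0.0361) passed the test but not the fold threshold. DDIT3 (CHOP) had 19.3 and 29.8 CPM and then 93.5 and 86.2 CPM, a log2 change of 1.87 ± 0.24 (adjusted p = 0.0178). ATF3, another bZIP factor of the response, read 13.6 and 21.4 CPM and then 72.8 and 70.6 CPM, and CHAC1, which degrades glutathione, 8.73 and 20.3 CPM and then 79.9 and 83.4 CPM. In DDIT3, ATF3 and CHAC1 control 2 was above control 1 and both were below the starved pair. TRIB3, a pseudokinase that restrains ATF4, had 29.9 and 63.7 CPM in the controls and 171 and 161 CPM in the starved libraries (log2 1.83 ± 0.38, adjusted p = 0.0367). SESN2, a leucine sensor that dampens mTORC1, was at 11.5 and 24.6 CPM in the controls and 41.7 and 42.3 CPM starved, and its change of 1.21 ± 0.37 did not pass the test (adjusted p = 0.0805), nor did that of DDIT4, another brake on mTORC1, at 0.59 ± 0.18 (adjusted p = 0.0757).

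ATF4 and C/EBP factors bind a composite element, searched here as TGATGNAA on both strands in RefSeq promoter windows (GRCh38.p14, 250 bases before to 50 after the start), which 11144 of the tested genes had. It was found in 2.78% of these windows, in 6.08% of the 378 windows of called rises and in 6 of 17 windows (35.3%) of called stress response genes. The 3 windows below are stretches of 100 bases upstream of the start, with the match in capitals. They belong to the most changed called stress response genes that held a match, and genes without a match, such as CTH, were passed over. The ASNS stretch is chr7:97872417-97872516 (minus strand), the CHAC1 stretch chr15:40953222-40953321 (plus strand) and the ATF3 stretch chr1:212565176-212565275 (plus strand).
ASNS: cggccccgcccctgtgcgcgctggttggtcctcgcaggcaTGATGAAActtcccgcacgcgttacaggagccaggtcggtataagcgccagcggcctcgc
CHAC1: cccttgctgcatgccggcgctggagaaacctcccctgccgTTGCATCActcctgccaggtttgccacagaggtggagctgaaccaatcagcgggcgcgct
ATF3: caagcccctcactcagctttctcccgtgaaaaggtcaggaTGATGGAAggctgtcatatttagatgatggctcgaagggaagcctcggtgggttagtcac
A match describes the letters only, and whether any factor bound there was not measured.

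Several amino acid transporters of the plasma membrane also rose, where 3.48% of all tested genes were called higher and 6.14% lower. Of 19 tested, 9 (47.4%) were called higher and 0 lower, with a median log2 fold change of 1.20, and without control 2 there would be 10 called rises and 3 called falls. SLC38A2 (SNAT2), a carrier of small neutral amino acids, read 891 and 786 CPM in the controls and 2991 and 3062 CPM after starvation, a log2 change of 1.85 ± 0.13 (adjusted p = 0.0155). The arginine carriers SLC7A1 (CAT1) and SLC7A2 (CAT2) were called as well. SLC7A1 was at 175 and 253 CPM and then 491 and 505 CPM, and SLC7A2 at 23.3 and 50.3 CPM and then 144 and 145 CPM, with log2 changes of 1.22 ± 0.20 (adjusted p = 0.0254) and 1.97 ± 0.38 (adjusted p = 0.0325). SLC1A4 (ASCT1) had 13.4 and 18.7 CPM in the controls and 76.97 and 79.6 CPM in the starved libraries, and SLC1A5 (ASCT2) 254 and 320.3 CPM and then 999.9 and 977 CPM. SLC7A11, the cystine carrier of system xc-, read 40.1 and 72.8 CPM in the controls and 187 and 197 CPM starved. SLC7A5 (LAT1), the large neutral amino acid carrier, was not called, with controls at 528 and 940.4 CPM and starved libraries at 947 and 983 CPM, so that control 2 lay close to the starved pair. Its heavy chain partner SLC3A2 was called at 1.48 ± 0.29 (adjusted p = 0.0342).

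Enzymes that charge tRNA and supply serine, proline and one-carbon units followed in part. Of 20 cytosolic aminoacyl-tRNA synthetases, 12 passed the adjusted p upward and 2 downward, against 10.3% and 11.8% of all tested genes, and 3 rises and 1 fall were past the fold threshold, with 5 rises if control 2 is left out. The called rises were YARS, AARS and SARS, for tyrosine, alanine and serine, at log2 changes of 1.36, 1.34 and 1.27. QARS, for glutamine, was the called fall, from 201 and 170.3 CPM to 71.2 and 70.9 CPM. RARS, which charges arginine itself, stood at 157 and 208 CPM in the controls and 151 and 148 CPM starved, a log2 change of -0.29 ± 0.16 (adjusted p = 0.258). Among 21 serine and one-carbon genes, 4 (19%) were called higher and 4 (19%) lower, beside 3.48% and 6.14% of all tested genes. PSAT1, of serine synthesis, read 69.00 and 156 CPM and then 479 and 493 CPM (log2 2.11 ± 0.41, adjusted p = 0.0328), and the mitochondrial folate enzyme MTHFD2 read 34.6 and 63.9 and then 127 and 133 CPM. PHGDH, the first enzyme of serine synthesis, rose from a low level, 0.914 and 1.10 CPM, to 4.92 and 4.17 CPM. The falls included TYMS, the thymidylate synthase that also belongs to the replication genes below, at 31.98 and 47.1 CPM and then 10.8 and 10.9 CPM.

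In arginine metabolism itself few genes were called by number. Of 24 tested genes, 2 (8.33%) were called higher, ASS1 and ODC1, and 0 lower by edgeR, beside 3.48% and 6.14% of all tested genes. Downward, 1 passed the adjusted p at any fold, 3 had an unadjusted p under 0.05 and DESeq2 called 0. ASS1 was at 6.19 and 11.2 CPM in the controls and 22.8 and 22.02 CPM after starvation, a log2 change of 1.36 ± 0.31 (adjusted p = 0.0428) that was 1.84 against control 1 and 0.99 against control 2. ODC1, the rate-limiting decarboxylase of polyamine synthesis, went from 104 and 244 CPM to 588 and 577 CPM, or 2.48 against control 1 and 1.25 against control 2. ASL, the next enzyme after ASS1, read 20.4 and 23.8 CPM and then 22.2 and 20.3 CPM, and the arginase gene ARG2 16.1 and 10.2 CPM and then 9.82 and 8.96 CPM, with the groups overlapping for ASL and neither called.

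The endoplasmic reticulum arm was uneven, and its counts stand beside 3.48% of all tested genes called higher and 6.14% lower. Of 32 chaperone, degradation and sensor genes, 6 (18.8%) were called higher and 0 lower, with a median of 0.40 that was 0.21 against control 1 and 0.68 against control 2, and without control 1 there would be 9 called rises and 2 called falls. ERN1, the IRE1 sensor, rose from 13.5 and 16.9 CPM to 68.8 and 70.4 CPM (log2 2.19 ± 0.15, adjusted p = 0.0155). XBP1, whose mRNA IRE1 splices, read 111 and 78.2 CPM and then 306 and 306 CPM, and DNAJB9, a co-chaperone, 32.9 and 22.8 and then 87.9 and 86.6 CPM. HSPA5 (BiP), the main chaperone of the compartment, had 1269.9 and 785 CPM in the controls and 2561 and 2524 CPM starved, and its log2 change of 1.31 ± 0.26 (adjusted p = 0.0336) was 1.001 against control 1 and 1.69 against control 2.

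Some inflammatory cytokines and NF-kB targets rose too. Of 31 tested, 12 (38.7%) were called higher and 0 lower, beside 3.48% and 6.14% of all tested genes. Of the called, 10 were past the threshold against each control. The median log2 fold change was 1.01, at 0.76 against control 1 and 0.92 against control 2. IL1A, which encodes interleukin-1α, stood at 4.06 and 2.95 CPM in the controls and 69.5 and 69.5 CPM in the starved libraries, a log2 change of 4.31 ± 0.20 (adjusted p = 0.0155). CSF2 (GM-CSF) read 28.7 and 25.1 CPM and then 205 and 202 CPM, and CXCL8 (interleukin-8), a neutrophil attractant, 23.7 and 16.3 CPM and then 125 and 126 CPM. For these 3 genes the controls lay close compared with the step to the starved pair. IL1B and IL6 rose less, from 4.97 and 5.05 to 17.1 and 16.98 CPM and from 93.7 and 76.9 to 182 and 187 CPM. NFKBIA, the NF-kB inhibitor that NF-kB itself induces, was at 101 and 68.3 CPM in the controls and 89.2 and 83.9 CPM starved, so the groups overlapped. IL24 was not called: its controls were at 9.07 and 44.8 CPM and its starved libraries at 156 and 154 CPM, higher than both.

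Genes of growth factor signalling and its feedback rose in part. Of 34 immediate early, AP-1 and MAP kinase feedback genes, 11 (32.4%) were called higher and 0 lower, beside 3.48% and 6.14% of all tested genes. All 11 were also past the threshold against each control. The dual specificity phosphatases DUSP1 and DUSP5, which shut off MAP kinases, went from 64.8 and 88.6 to 371 and 373 CPM and from 106 and 107 to 492 and 475 CPM, with log2 changes of 2.28 ± 0.18 (adjusted p = 0.0155) and 2.18 ± 0.10 (adjusted p = 0.0155). SPRY4, an inhibitor of receptor signalling, read 144 and 130.3 and then 482 and 476 CPM. MYC, the growth-promoting factor, had 129 and 182 CPM in the controls and 624 and 629.7 CPM after starvation (log2 2.01 ± 0.20, adjusted p = 0.0158). FOS was at 1.42 and 2.01 CPM and then 1.80 and 1.60 CPM, JUN at 206 and 230.4 CPM and then 269 and 245 CPM and FOSL1 at 234 and 478 CPM and then 443 and 422 CPM, and none of these was called.

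Of 20 hypoxia-inducible factor targets tested, 3 (15%) rose, against 3.48% of all tested genes, and 1 (5.0%) fell, against 6.14%, with 5 rises if control 1 is left out. VEGFA, the vascular growth factor that ATF4 can also induce, went from 329.9 and 244 CPM to 1033 and 1027 CPM (log2 1.84 ± 0.18, adjusted p = 0.0158), MXI1, a MYC antagonist, from 24.8 and 16.4 to 91.7 and 88.8 CPM, and the histone demethylase KDM3A from 62.9 and 63.3 to 135 and 137 CPM. CA9, the carbonic anhydrase most used as a hypoxia marker, fell from 67 and 36 counts to 4 and 4 counts. Of 23 glycolysis genes, 2 (8.7%) were called higher and 2 (8.7%) lower, beside 3.48% and 6.14% of all tested genes. At any fold, 8 passed the adjusted p downward and 2 upward, against 11.8% and 10.3% of all tested genes. The median was -0.43. PKM, for pyruvate kinase, read 2868 and 2578 CPM in the controls and 1468 and 1487 CPM in the starved libraries (log2 -0.88 ± 0.13, adjusted p = 0.0203), and LDHA, for lactate dehydrogenase, 1675 and 1495 CPM and then 1177 and 1179 CPM (adjusted p = 0.0708). The glucose carrier SLC2A3 (GLUT3) went the other way, from 85.95 and 76.4 CPM to 269 and 264 CPM.

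**Figure D3:**
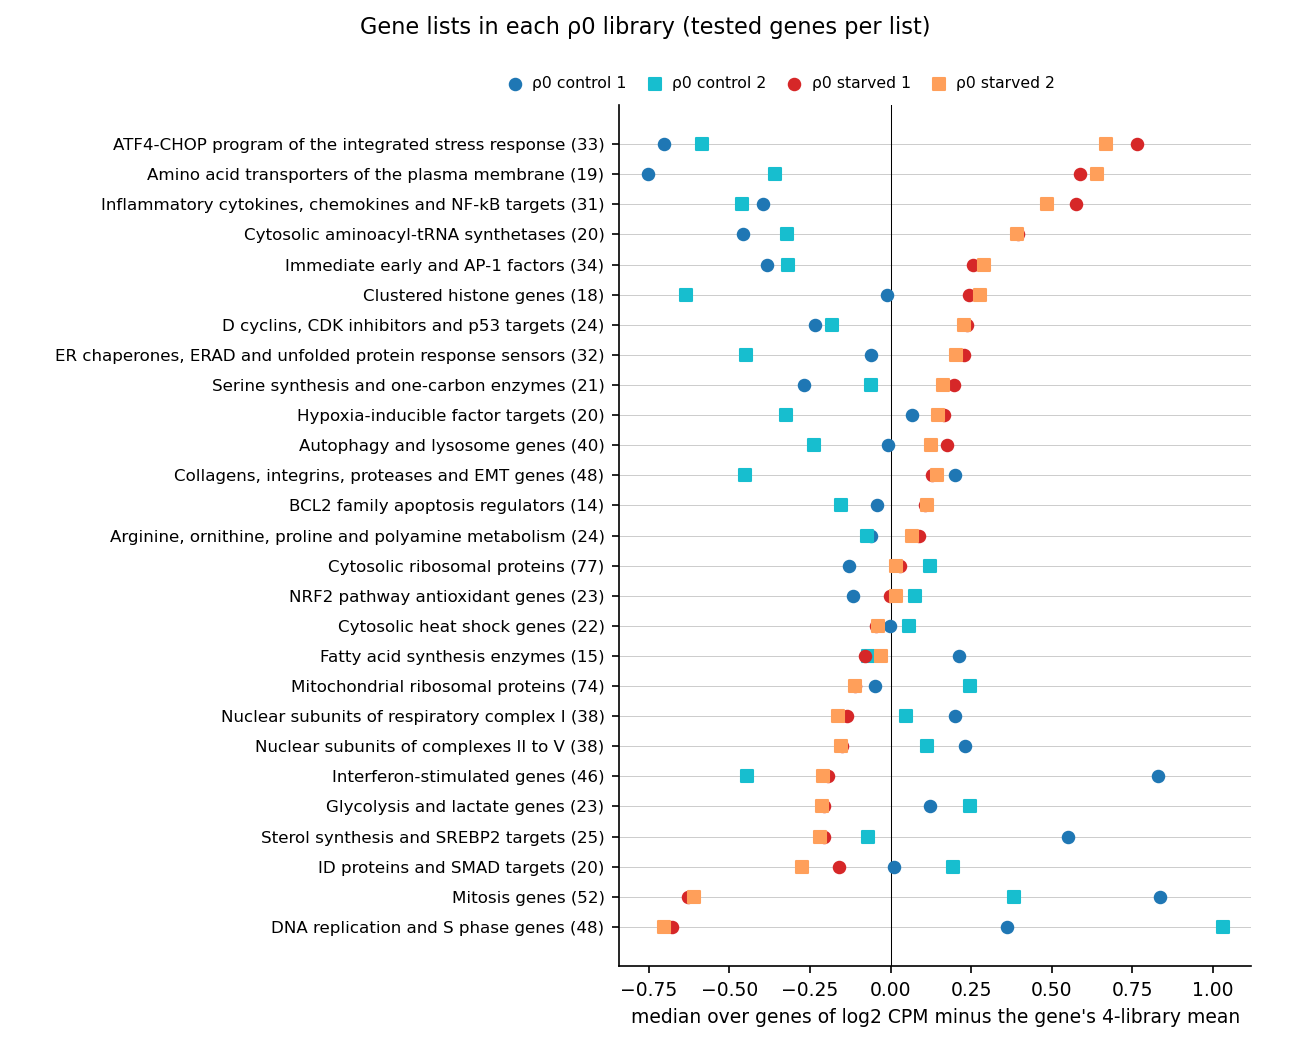
Median over the tested genes of each list (number in brackets) of log2 CPM minus the gene's mean over the 4 ρ0 libraries, with 1 point per library. The starved libraries lie close together in each list. The controls lie on opposite sides of the starved pair for interferon-stimulated genes, and also for matrix, cytosolic ribosomal and NRF2 genes. Control 2 is lowest for histone, endoplasmic reticulum and matrix genes, among others.

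Most DNA replication and S phase genes fell. Of 48 tested, 36 (75%) were called lower and 0 higher, beside 6.14% and 3.48% of all tested genes. The median log2 fold change was -1.45. Against control 1 it was -1.07 and against control 2 -1.74, and 27 of the 36 called falls were past the threshold against both. ORC1, of the complex that marks replication origins, had 20.3 and 40.5 CPM in the controls and 4.09 and 4.13 CPM in the starved libraries, a log2 change of -2.89 ± 0.38 (adjusted p = 0.0186). CDC45, of the replicative helicase, read 45.7 and 77.1 CPM and then 9.58 and 10.1 CPM, and the helicase subunit MCM5 119 and 175 CPM and then 26.6 and 28.03 CPM. Control 2 was the higher control in all 3, and the starved pair lay below both controls. PCNA, the sliding clamp, had 134 and 259 CPM in the controls and 72.7 and 73.01 CPM starved, a change of -0.88 against control 1 and -1.83 against control 2 (adjusted p = 0.0446). MCM2, CDC6 and the cyclin gene CCNE2 were lower than both controls too, but at log2 changes of -1.19, -0.90 and -1.30 they did not pass the test (adjusted p = 0.0618, 0.0992 and 0.101). In bulk RNA, fewer cells in S phase and less of these mRNAs per cell cannot be told apart.

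FAM111B, a protease gene expressed in S phase, was among the 12 clearest falls, at 45.5 and 120.02 CPM in the controls and 7.22 and 7.41 CPM in the starved libraries. The controls alone were over 2-fold apart, and the log2 change was -2.63 against control 1 and -4.02 against control 2. BRIP1, a helicase that works with BRCA1, read 48.7 and 78.8 CPM and then 10.2 and 11.1 CPM. Clustered histone genes did not share the direction, with 18 tested and 30 more below the filter. Of the 18, 2 (11.1%) were called higher and 0 lower, beside 3.48% and 6.14% of all tested genes. The 2 were HIST1H2AC and HIST1H2BD, at log2 changes of 1.70 and 1.22. Without control 1 there would be 9 called histone rises and 1 fall, and without control 2 there would be 3 rises and 2 falls. Their sequences are near-identical copies of others in the cluster, and how reads matching several copies were counted is not given in the sources used here.

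Most mitosis genes fell as well, with the controls in the opposite order. Of 52 tested, 34 (65.4%) were called lower and 0 higher, beside 6.14% and 3.48% of all tested genes. The median was -1.31, at -1.43 against control 1 and -1.04 against control 2. KIF20A, a kinesin of cytokinesis, stood at 151 and 63.5 CPM in the controls and 9.88 and 10.5 CPM after starvation, a log2 change of -3.40 ± 0.47 (adjusted p = 0.0192). PLK1, the polo-like kinase, read 118 and 68.01 CPM and then 19.00 and 20.9 CPM, and TOP2A, the topoisomerase of chromosome condensation, 869 and 696 CPM and then 221 and 229.8 CPM. SPC24 and SPC25, of the NDC80 kinetochore complex, had controls close together, at 12.9 and 14.6 CPM and 34.9 and 30.3 CPM, above starved values of 2.96 and 2.95 CPM and 7.02 and 6.43 CPM. CDK1 was at 179 and 172 CPM in the controls and 77.7 and 81.2 CPM starved (log2 -1.14 ± 0.10, adjusted p = 0.0157). CCNB1, its cyclin B1 partner, was not called, and its controls were at 398 and 172 CPM and its starved libraries at 116 and 112 CPM (log2 -1.32 ± 0.41, adjusted p = 0.0818). DEPDC1B, a cell cycle gene outside the list, went from 32.8 and 25.5 CPM to 3.99 and 3.81 CPM.

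Promoter windows of both groups of cell cycle genes are shown because their motif shares were unlike. The E2F motif TTTNGCGC was in 3.5% of all tested windows and in 12 of 30 windows (40%) of called replication falls. The CHR element TTTGAA, used by the DREAM and MuvB complexes, was in 13.7% of all windows, in 1 of 30 of the replication falls and in 19 of 28 (67.9%) of the called mitosis falls, where CCAAT was in 82.1% against 42.7% of all windows. MCM6 and MKI67 were chosen for display after their values were seen, since a match lay near their starts. The stretches, on GRCh38.p14, are chr1:23531234-23531333 (E2F2, minus), chr2:135876470-135876569 (MCM6, minus), chr16:23678789-23678888 (PLK1, plus) and chr10:128126424-128126523 (MKI67, minus), with each E2F or CHR match in capitals.
E2F2: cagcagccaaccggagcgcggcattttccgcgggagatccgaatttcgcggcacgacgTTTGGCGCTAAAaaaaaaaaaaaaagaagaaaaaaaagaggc
MCM6: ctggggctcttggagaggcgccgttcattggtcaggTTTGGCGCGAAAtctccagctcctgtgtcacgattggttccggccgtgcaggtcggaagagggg
PLK1: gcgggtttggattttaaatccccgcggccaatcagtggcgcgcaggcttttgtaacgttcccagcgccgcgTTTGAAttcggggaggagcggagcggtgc
MKI67: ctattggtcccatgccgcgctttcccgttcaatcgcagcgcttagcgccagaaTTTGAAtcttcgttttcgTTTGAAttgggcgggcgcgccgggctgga
E2F2 itself, an E2F factor, fell from 5.31 and 13.5 CPM to 1.83 and 1.43 CPM (log2 -2.52 ± 0.53, adjusted p = 0.0377), and MKI67, the Ki-67 proliferation marker, from 447 and 408 CPM to 97.4 and 96.8 CPM.

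**Figure D4:**
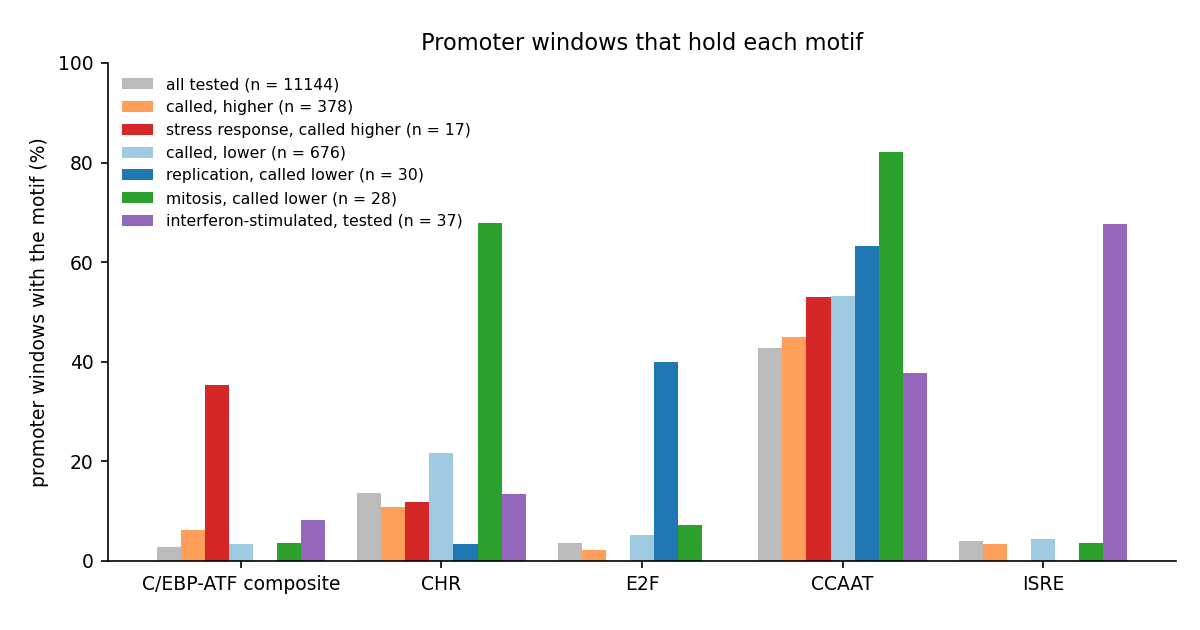
Percent of RefSeq promoter windows (y axis) that hold each of 5 motifs (x axis) in 7 sets of ρ0 genes, with the number of windows in brackets. The composite element stands out in called stress response genes, CHR in called mitosis genes, E2F in called replication genes and the interferon response element in interferon-stimulated genes.

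Of 24 tested D cyclins, CDK inhibitors and p53 targets, 4 (16.7%) were called higher and 1 (4.17%) lower, against 3.48% and 6.14% of all tested genes, and without control 2 there would be 5 rises and 2 falls. CDKN2C (p18), an inhibitor of CDK4 and CDK6, was among the clearest falls, from 35.2 and 24.1 CPM to 3.46 and 3.93 CPM (log2 -3.005 ± 0.25, adjusted p = 0.0155). GADD45A and BTG1, which restrain growth under stress, rose from 55.4 and 86.1 to 339.5 and 315 CPM and from 73.97 and 66.2 to 246 and 246 CPM. CDKN1A (p21) passed the adjusted p at 0.049 with a log2 change of 0.49 ± 0.12, at 136 and 118 CPM in the controls and 178 and 177 CPM starved, below the fold threshold. CCND1 (cyclin D1) was at 773 and 1337 CPM and then 1385 and 1372 CPM, so that control 2 was close to the starved pair and the gene was not called.

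ID1 and ID3, which block differentiation factors and respond to BMP signals, fell, and so did a BMP ligand. ID3 stood at 9.27 and 28.5 CPM in the controls and 2.06 and 1.72 CPM in the starved libraries, and ID1 at 47.00 and 80.6 CPM and then 16.9 and 14.5 CPM. The log2 changes were -3.31 ± 0.62 (adjusted p = 0.0307) and -2.02 ± 0.30 (adjusted p = 0.0205), and for both genes control 2 was the higher control. BMP4, the ligand, went from 305 and 209 CPM to 62.5 and 60.9 CPM (log2 -2.06 ± 0.21, adjusted p = 0.0158). Of the 20 ID, SMAD and HES or HEY genes tested, 3 (15%) were called lower, these 3, and 3 (15%) higher, among them HEY1 at 1.84. Of all tested genes 6.14% were called lower and 3.48% higher. SMAD7, an inhibitory SMAD, was at 7.14 and 7.44 CPM in the controls and 10.7 and 10.3 CPM starved and was not called (adjusted p = 0.0733).

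KRT8, for keratin 8, read 592 and 671 CPM in the controls and 137 and 135 CPM after starvation (log2 -2.22 ± 0.12, adjusted p = 0.0155), and the cadherin gene CDH1 15.5 and 13.8 and then 4.69 and 4.26 CPM. Of 11 luminal and epithelial genes tested, 4 (36.4%) were called lower and 2 (18.2%) higher, beside 6.14% and 3.48% of all tested genes. The 2 rises were XBP1 and ESRP1, the latter with only 2 and 2 counts in the controls and 15 and 16 in the starved libraries. CPA4, a carboxypeptidase gene, fell from 43.8 and 43.3 CPM to 6.82 and 7.82 CPM, NRGN, for neurogranin, from 18.6 and 20.1 to 3.09 and 3.36 CPM, and LRRC45, for a centrosomal protein, from 21.5 and 26.8 to 3.39 and 4.09 CPM. Among 48 collagen, integrin and protease genes, 4 (8.33%) were called higher and 4 (8.33%) lower, beside 3.48% and 6.14% of all tested genes, with 9 rises if control 1 is left out and 8 falls if control 2 is. The rises included the collagenase MMP1, from 0.744 and 0.879 CPM to 12.8 and 13.7 CPM (log2 4.02 ± 0.21, adjusted p = 0.0155), and SERPINB2, from 9 and 3 counts to 105 and 73 counts. COL8A1, a collagen, fell from 132 and 74.2 CPM to 31.4 and 32.6 CPM. The median of the matrix genes was -0.16 against control 1 and 0.56 against control 2, and there would be 9 called rises without control 1 and 8 called falls without control 2.

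Some called genes carried a large share of the reads, and 4 abundant ones are given that were picked after their values were seen. ACTB and ACTG1, the cytoplasmic actins, fell from 4681 and 5167 to 1948 and 1920.4 CPM and from 3016 and 4473 to 1602 and 1595 CPM. Caveolar PTRF (cavin 1) fell from 1193 and 1271 CPM to 312 and 316 CPM and TGM2, a transglutaminase, from 1607 and 1211 CPM to 448 and 448 CPM. In each of the 4 the groups lay apart, at log2 changes of -1.35, -1.23, -1.97 and -1.65. Since the actins are members of a family with processed copies, the split of reads between them is uncertain.

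The direction of the interferon-stimulated genes depended on the control. Of 46 tested, 42 were lower in the starved libraries than in control 1, at a median log2 difference of -1.12, while 30 were higher than in control 2, at a median of 0.30. ISG15, a ubiquitin-like modifier, stood at 403 and 105 CPM in controls 1 and 2 and at 311 and 314 CPM in the starved libraries. RSAD2 (viperin) read 68.9 and 10.6 CPM and then 25.9 and 23.7 CPM in the same order. By edgeR 1 gene (2.17%), the GTPase GBP1, was called lower and 0 higher, beside 6.14% and 3.48% of all tested genes. GBP1 fell from 73.6 and 66.7 CPM to 28.3 and 28.4 CPM. On the same 4 libraries DESeq2 called 5 falls, limma-voom 1 and limma-voom with weights by group 2. At an unadjusted p under 0.05 edgeR had 8 falls and 2 rises, beside 21.2% and 19.3% of all tested genes.

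**Figure D5:**
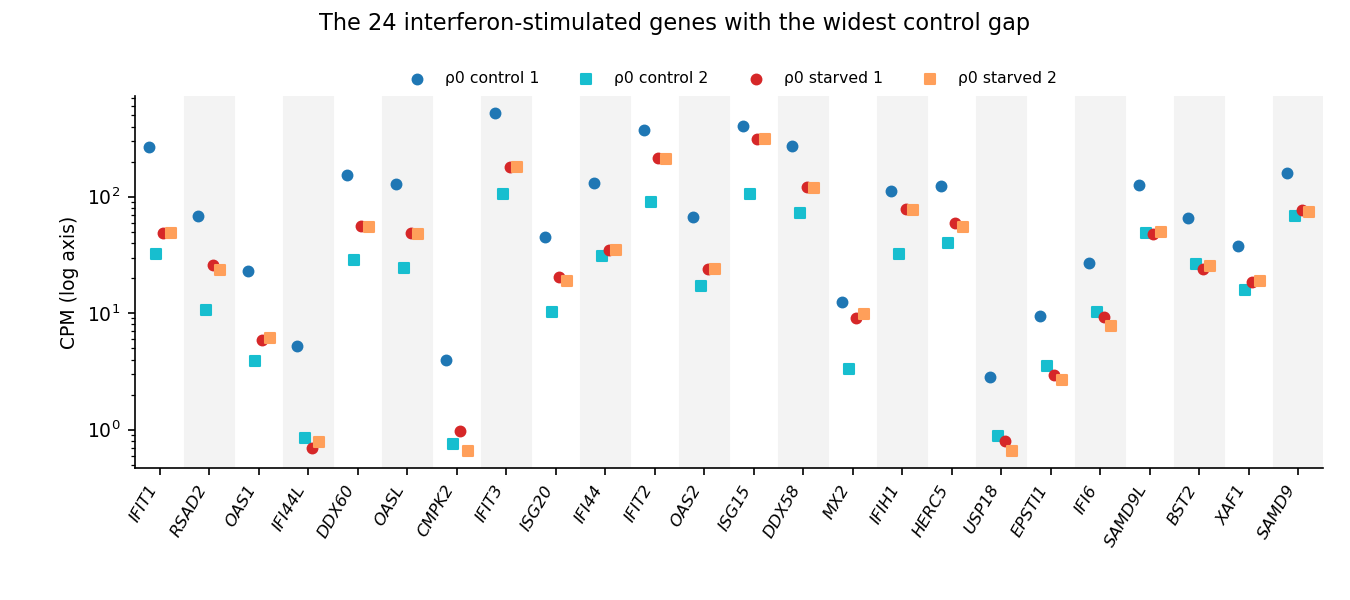
CPM on a log axis in each of the 4 ρ0 libraries (points) for the 24 of 46 tested interferon-stimulated genes with the widest gap between controls, ordered by that gap. Control 1 is the highest library in each, and the starved libraries lie between the controls or near control 2.

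A promoter element, the interferon-stimulated response element (ISRE, searched on both strands), was in 25 of 37 of their windows (67.6%), in 3.95% of all tested windows and in 3.44% and 4.29% of the windows of called rises and falls. The windows of IFIT1 (chr10:89392480-89392579, plus), DDX60 (chr4:168318753-168318852, minus) and IFIT3 (chr10:89332429-89332528, plus), on GRCh38.p14, are shown since the controls lay far apart in these genes, with each match in capitals, DDX60 and IFIT3 having been picked after their values were seen.
IFIT1: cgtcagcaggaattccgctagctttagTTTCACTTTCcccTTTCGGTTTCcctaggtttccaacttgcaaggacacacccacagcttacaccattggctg
DDX60: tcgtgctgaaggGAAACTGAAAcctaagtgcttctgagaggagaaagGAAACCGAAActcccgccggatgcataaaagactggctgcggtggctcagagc
IFIT3: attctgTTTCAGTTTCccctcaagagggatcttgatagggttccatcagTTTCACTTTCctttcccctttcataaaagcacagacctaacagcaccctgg
DDX60, a helicase-like antiviral gene, was at 155 and 28.9 CPM in controls 1 and 2 and at 55.6 and 55.2 CPM in the starved libraries, and IFIT3 at 524 and 106 CPM and then 181 and 180.2 CPM.

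Sterol genes too depended on which control was used. Of 25 tested, 5 (20%) were called lower and 0 higher, beside 6.14% and 3.48% of all tested genes. The median was -0.86 against control 1 and -0.01 against control 2, and 3 of the 5 called falls were past the threshold against both. Without control 1 there would be 4 called falls and without control 2 there would be 10. EBP, a sterol isomerase, fell from 109 and 132 CPM to 46.1 and 46.6 CPM. INSIG1, a sterol sensor, was at 97.4 and 34.3 CPM in the controls and 32.9 and 28.1 CPM starved. The desaturase SCD read 885 and 383 CPM and then 239 and 239 CPM and was not called (adjusted p = 0.073), while FADS2, the only called one of 15 fatty acid genes, was (adjusted p = 0.0481). The FADS2 call was lost by limma-voom, and its fall was not past the fold threshold against both controls (log2 -1.90 against control 1 and -0.88 against control 2). FASN, for fatty acid synthase, differed little at -0.15 ± 0.14 (adjusted p = 0.453).

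Nuclear genes of the respiratory chain held few calls by number, and their medians were below 0. Of 38 complex I genes, 3 (7.89%) were called lower, NDUFB6, NDUFB7 and NDUFA9, and 0 higher, beside 6.14% and 3.48% of all tested genes. In that list 9 were past the adjusted p downward and 1 upward, with a median of -0.28. NDUFB7 went from 55.7 and 52.04 CPM to 24.9 and 25.2 CPM (log2 -1.10 ± 0.11, adjusted p = 0.0158). Of 38 genes of complexes II to V, 0 were past both thresholds by edgeR or by DESeq2, with 15 at an unadjusted p under 0.05 downward and 0 upward, beside 21.2% and 19.3% of all tested genes, and 2 called falls if control 1 is left out. By the adjusted p 9 passed downward, and the median was -0.32. Here ATP5A1, a subunit of ATP synthase, stood at 432 and 439 CPM and then 222 and 219 CPM (log2 -0.98 ± 0.10, adjusted p = 0.0158) and SDHA, of succinate dehydrogenase, at 147 and 135 CPM and then 73.1 and 76.1 CPM. Mitochondrial ribosomal protein genes had 2 called falls of 74 and a median of -0.22, at -0.02 against control 1 and -0.37 against control 2, with 10 called falls if control 1 is left out.

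Several programs held few calls by number, though not all held a smaller share than the 3.48% higher and 6.14% lower of all tested genes. The autophagy and lysosome list had 7.5% called higher, the NRF2 list 4.35% higher and 8.7% lower, and the heat shock list 4.55% lower. Of 77 cytosolic ribosomal protein genes, 0 were called by edgeR or DESeq2, 7 had an unadjusted p under 0.05 upward and 12 downward, beside 40.5% of all tested genes in either direction. Their median was 0.01, at 0.14 against control 1 and -0.12 against control 2. Of 14 BCL2 family genes, 0 were called by edgeR and 1 by DESeq2, upward, while 5 of 14 had an unadjusted p under 0.05 upward and 0 downward. Without control 1 there would be 2 called rises, and PMAIP1 (NOXA) had controls at 148 and 71.1 CPM and starved libraries at 235 and 235 CPM (log2 1.10 ± 0.36, adjusted p = 0.0918). Autophagy and lysosome genes had 3 called rises of 40, LAMP3, the autophagy kinase ULK1 and the cholesterol exporter NPC1, and a median of 0.34, with 7 called rises if control 1 is left out. MAP1LC3B, of the autophagosome membrane, read 84.2 and 71.5 CPM and then 134 and 131 CPM (log2 0.77 ± 0.12, adjusted p = 0.0237). Antioxidant genes of the NRF2 pathway had 1 called rise and 2 falls of 23, with TXNRD1, for thioredoxin reductase, just under the fold threshold at 0.98 ± 0.19 (adjusted p = 0.0316), and NQO1 at -0.46 ± 0.24 (adjusted p = 0.214). Without control 2 there would be 5 called rises in that list. Heat shock genes had 1 called fall of 22, HSPA1A, from 18.98 and 25.4 CPM to 9.58 and 10.4 CPM, a value that is uncertain because HSPA1B is a near-identical copy. For the lists with called genes in a single direction, between 0 and 3 members had an unadjusted p under 0.05 in the other direction, where DESeq2 and limma-voom called 0, apart from 3 falls among the fibroblast and endothelial markers by DESeq2 and by limma-voom with weights by group, which edgeR did not call.

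Whether ρ0 cells responded otherwise than parental cells was tested by the line by starvation interaction in a fit of all 8 libraries, where 6167 of 15262 genes (40.4%) had an adjusted p under 0.05, 3295 (21.6%) with the ρ0 response above the parental one and 2872 (18.8%) below. Of the 491 genes called higher in ρ0 cells, 177 responded above parental cells, 54 below and 260 did not pass the test. Of the 868 called lower, 204 were above, 189 below and 475 did not pass. These genes were picked by their ρ0 change, and the difference uses the same ρ0 libraries. Such a choice favours differences in the direction of the call, so these splits do not measure how the lines compare. Inflammatory genes differed upward in 22 of 31, with a median response of 0.99 in ρ0 and -0.66 in parental cells, and replication genes downward in 33 of 48, with medians of -1.46 and -0.36. LAMP3 had a log2 change of -2.78 in parental cells, from 308 and 307 counts to 35 and 42, while it rose in ρ0 cells (difference 7.36 ± 0.23, adjusted p = 2.09e-05). ID3 had a log2 change of 3.37 in parental cells, a difference of -6.69 ± 0.69 (adjusted p = 0.000676), and the long noncoding RNA UCA1, with 2 and 4 counts in parental controls and 19 and 24 in starved parental cells, fell in ρ0 cells from 83.8 and 107 CPM to 33.3 and 34.99 CPM. The cystatin genes CST1 and CST4 fell in ρ0 cells from 1684 and 3660 to 382 and 337 counts and from 609 and 677 to 153 and 127 counts, and were at 3 counts or fewer in starved parental cells, so the ρ0 response lay at least 6.43 and 6.09 above on the log2 scale (floor of 3 counts per library). They are closely similar copies, so the split of reads between them is uncertain. Without ρ0 control 1 or 2 the number of differing genes was 10281 or 9265, without starved ρ0 library 1 or 2 it was 3571 or 3718, without parental control 1 or 2 it was 3992 or 3934, and without starved parental library 1 or 2 it was 3699 or 3563.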

How the data were processed

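RNA-seq was analysed from 8 libraries of MDA-MB-231 cells, 2 per group. The values are whole-number read counts per gene, as deposited by the authors, and per the labels their processing named Bowtie, Partek and the human build hg19, with the annotation, the counting rule and the treatment of reads matching several genes not given in the sources used here. No gene coordinates are given on hg19, since the reference at hand was GRCh38.p14, used for names, promoter windows, transcript length and GC content. No column of another sample was left unused (0).

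Counts of the 4 ρ0 libraries were filtered with edgeR's filterByExpr, scaled by TMM and tested by edgeR's quasi-likelihood test (edgeR 4.0.16, R 4.3.3) with Benjamini-Hochberg adjustment, calling genes by both thresholds, an adjusted p of 0.05 and a change of 1 in size on the log2 scale. The coefficient of variation of this fit was 17.4% on 2 residual degrees of freedom. The ρ0 libraries were fitted alone because the parental pairs varied less. A fit of all 8 libraries with 4 residual degrees of freedom gave only the line by starvation difference. CPM are scaled for depth but not for length, so levels were not compared between genes. Values against a single control are differences of log2 CPM with a prior count of 2.

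Genes named were the 12 rises and 12 falls with the widest gap between groups among called genes of at least 10 CPM, the key members of each list and up to 4 of its most changed called members, the 6 genes highest and 6 lowest in control 2 over control 1, and the 3 genes most above and 3 most below the parental response. Genes outside this rule are said to be so, and the markers CD14, LYZ, PDGFRB and COL1A2 were outside it too. Some genes that the rule names are not reported here. The libraries, gene lists and tests were chosen with earlier results of these data known.

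On simulated data for the ρ0 comparison (14127 genes), edgeR called 94% of 100 genes changed by 1.5 and 100% of 100 changed by 3 on the log2 scale, with 1 other called. For the line difference (15262 genes) the shares were 94% and 99%, with 6 others. The simulations gave all genes and libraries the same spread, whereas the real coefficient of variation was 25% for the ρ0 controls and 1.83% for the starved pair. They could not show how often calls are missed or wrong at such unequal spread. Alternatives were other scalings and filters, DESeq2 1.42.0, limma-voom (limma 3.58.1), a fit of all libraries, a replicate block, a GC and length offset and leaving out each library. List counts past the fold against each control, and without each control, were added after seeing the data.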

Additional observations from a re-analysis of the deposited data

Results flagged for a closer look

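The response of 6167 genes differed between ρ0 and parental cells by the line by starvation interaction of edgeR (adjusted p under 0.05). LAMP3 rose in ρ0 cells and was lower after starvation in parental cells, a difference of 7.36 on the log2 scale. ID3 fell in ρ0 cells and was higher after starvation in parental cells, a difference of -6.69. UCA1 fell in ρ0 cells while parental cells held between 2 and 24 counts, a difference of -4.50 that rests on those few parental counts. CST1 and CST4 were lower after starvation in both lines, and as starved parental cells held at most 3 counts, the ρ0 responses lay at least 6.43 and 6.09 above the parental ones. For ADGRF1, an adhesion G protein-coupled receptor gene, the parental controls held 2 and 0 counts and the starved parental libraries 6 and 4. In ρ0 cells it fell from 708 and 672 to 203 and 200 counts. With the parental controls set to 3 counts, the ρ0 response lay below the parental response by a difference of -2.40. That value rests on those few parental counts, so it is not a firm bound. With 2 libraries a group, single libraries were not screened for values far from the rest.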

How the results depend on the processing

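Counts of called genes stayed within 1.5 times the reported 491 rises and 868 falls under the other scalings, filters, tests and fits of all libraries, which gave 379 to 644 rises and 774 to 1249 falls, and DESeq2 shared 438 of the rises and 809 of the falls. Without a fold threshold there were 1462 rises and 1665 falls. Leaving out 1 library gave 262 to 938 rises, 372 to 1472 falls and 3563 to 10281 genes differing between lines, the highest counts coming without a control, where the spread rests on the starved pair alone and the remaining control is assumed to vary like it. Over genes, the difference between replicates 1 and 2 in the controls hardly correlated with that in the starved pair (-0.033). As the starved pair varied little beyond sampling noise, this could not show whether the replicate numbers pair the libraries. The replicate block gave 613 rises, 1055 falls and 5731 differing genes. No named gene whose fold change is given turned direction under these alternatives. Without control 1, ASS1 (0.98), SLC7A1 (0.96) and FADS2 (-0.89) fell under the fold threshold, as did PCNA (-0.88) and ACTG1 (-0.92) without control 2. Without starved library 1 or 2, ACTB, ACTG1, ASS1, HEY1, HSPA5 and NDUFB7 kept their fold but had adjusted p-values between 0.0528 and 0.152, as did CDK1 (0.0658) without library 1 and HIST1H2BD (0.0515) without library 2. By limma-voom E2F2, FADS2, ID3 and PCNA were not called (adjusted p between 0.052 and 0.0622), nor was HEY1 with weights by group (0.0836), ODC1 under the upper quartile, total counts or the 10-count filter (0.0512 to 0.0558) or ASS1 under total counts (0.0515). The depth of 25259503 to 31022155 counts left 9266 genes below the filter.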
